A study of Mus musculus with 20 samples.

Results

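The genes described here are 10 genes of the inflammasome and of pyroptosis, taken by symbol from the deposited table of 55487 mouse genes. They are the sensors Nlrp6, Nlrp1b, Nlrp3, Naip1, Naip5 and Naip6, the sensor and scaffold Nlrc4, the adaptor Pycard, the protease Casp1 and the pore-forming protein Gsdmd. Each symbol matched 1 row, and all 10 passed the filter on low counts. The tissue was small intestine of mouse pups, of which polyA RNA was sequenced in bulk. A control group of 2-week-old pups and a control group of 7-week-old pups were born to dams without periodontitis. The other 2 groups, called periodontitis pups below, were 2- and 7-week-old pups whose dams had periodontitis, an inflammation of the gums and the bone that hold the teeth. Each group had 5 libraries, and the stated aim was to compare the pups of the 2 kinds of dam. The treatment was that of the dam, not of the pup. Strain, sex, litter, segment of the intestine and the way periodontitis was brought about are not given in the sources used here. By the GENCODE annotation of GRCm38, all 10 are protein-coding genes. Nlrp6 is at chr7:140920902-140929192 (plus strand), Nlrp1b at chr11:71153102-71230733 (minus), Nlrp3 at chr11:59541568-59566956 (plus) and Nlrc4 at chr17:74425438-74459142 (minus). Pycard is at chr7:127989708-127993867 (minus), Casp1 at chr9:5298517-5307265 (plus) and Gsdmd at chr15:75862327-75867408 (plus). Nothing in the labels says that libraries of a group came from separate litters, so the p-values measure only the spread between these libraries.

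An inflammasome is a protein complex that forms in the cytosol when a sensor meets a microbial product or a sign of cell damage. It recruits caspase-1, directly or through the adaptor ASC encoded by Pycard. Caspase-1 matures the cytokines interleukin-1 beta and interleukin-18 and cuts gasdermin D, whose freed fragment opens pores in the plasma membrane and leads to the lytic death called pyroptosis. In the gut the NAIP-NLRC4 inflammasome of epithelial cells senses bacterial flagellin and secretion systems and drives the expulsion of infected cells. Nlrp6 is best known from epithelial and goblet cells, and Nlrp3 from myeloid cells.

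Library totals ran from 14.9 to 42.6 M counts (M, mega). Control library 5 at 2 weeks stood apart, with 29.41% of its counts from mitochondrial genes against 3.987% to 9.148% in the other 19 libraries. Periodontitis library 5 at 7 weeks also differed from its group, with a summed level of 5 proximal intestine markers of 27600 CPM (counts per M counts) against 71900 to 85900 CPM. Epithelial markers were present in all libraries: 0 of the 8 genes, among them Epcam, Vil1 and Cdh1, was at 0, and their sum ran from 4150 to 8340 CPM at 2 weeks and from 8940 to 17000 CPM at 7 weeks. The 7-week libraries all had Y-linked Ddx3y at 29.2 CPM or more and Xist at 0.658 CPM or less, while the 2-week libraries were mixed. At 2 weeks Xist and Ddx3y ran from 16.6 to 92.3 and from 0 to 77.4 CPM in control libraries. In periodontitis libraries they ran from 0.71 to 137 and from 0.0374 to 35 CPM. Control libraries 2 to 5 and periodontitis libraries 2 and 5 had both, each at 7.096 CPM or more. Age and the sex make-up of the libraries therefore cannot be told apart fully, nor can dam and sex make-up at 2 weeks. All levels are CPM after TMM scaling (trimmed mean of M values), and in bulk tissue fewer cells of a type and less RNA per cell cannot be told apart.

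Per kilobase of exon, Gsdmd and Casp1 had the highest mean levels of the 10 genes in every group. In control pups at 2 weeks Casp1 stood at 103 ± 41.7 and Gsdmd at 94.8 ± 42.5 CPM per kilobase (SD, n = 5), and their ranges overlapped. In control pups at 7 weeks Gsdmd was at 238 ± 24.8 and Casp1 at 71.9 ± 7.15 CPM per kilobase, with no overlap. Pycard and Nlrp6 followed with overlapping ranges in all 4 groups, at 37.1 and 35.4 CPM per kilobase in control pups at 2 weeks and at 47 and 51.2 at 7 weeks. The NAIP genes and Nlrc4 came next, at 6.6 to 19.5 CPM per kilobase as group means. Their order differed with age. In control pups at 2 weeks it was Naip1, Naip6, Naip5 and Nlrc4, at 19.2, 12.9, 11.2 and 7.58 CPM per kilobase. At 7 weeks it was Naip5, Nlrc4, Naip1 and Naip6, at 17, 15.7, 10.8 and 6.74 CPM per kilobase. The ranges of neighbours in these orders overlapped. In periodontitis pups at 2 weeks Naip1, at 19.5 CPM per kilobase, lay above Naip5, at 10.9, with no overlap. Nlrp1b lay below all of these, at 0.573 to 2.15 CPM per kilobase as group means, and Nlrp3 was the lowest in every group, at 0.0373 to 0.116.

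**Figure D1:**
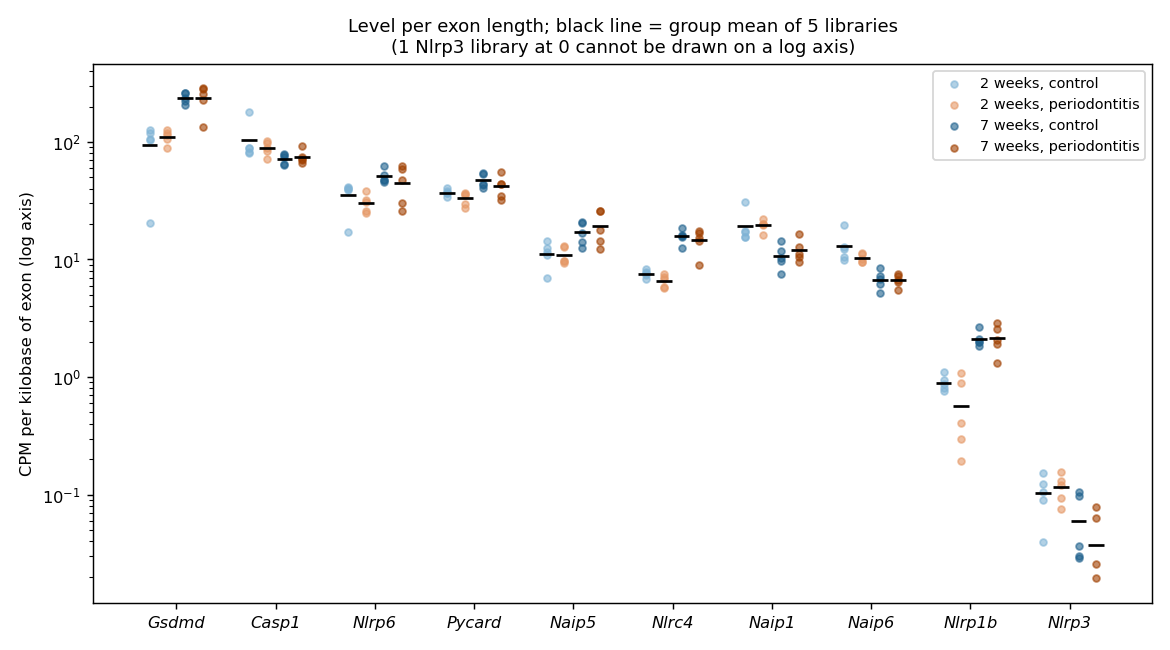
Level of the 10 genes in CPM per kilobase of exon on a log axis, by group; each point is a library and each black line the mean of 5 libraries. The means of Gsdmd and Casp1 lie at the top and that of Nlrp3 at the bottom in every group, while Gsdmd reaches down to 20.6 CPM per kilobase in control library 5 at 2 weeks, and the NAIP genes and Nlrc4 lie close together between 5.14 and 30.6 CPM per kilobase.

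Between the 2 kinds of dam, 0 of the 10 genes differed at 2 weeks, 0 at 7 weeks and 0 in the difference of these contrasts between the ages (edgeR adjusted p of at least 0.388 for each gene). Few genes of any kind were called by edgeR: 0.0286% of the 17464 genes tested at 2 weeks, 0.0115% at 7 weeks and 0.0229% for the difference between ages. Counts of 0 called thus lie at the background. At an unadjusted p under 0.05 the count of the 10 was also 0 in each of these, against 2511, 582 and 1537 of all genes tested. DESeq2 called 0 of the 10 as well, against 599, 25 and 65 of all genes. The median log2 fold change of the 10 genes, periodontitis against control, was -0.18 at 2 weeks and -0.01 at 7 weeks, against 0.02 over all genes tested at either age. Scaled to library totals in place of TMM, the median of the 10 genes was -0.02 at 2 weeks and 0 at 7 weeks, against 0.16 and 0.06 over all genes. The intervals below are those of the TMM fit. They measure the spread between these libraries and do not cover scaling, litter or sex make-up. At 2 weeks the 95% interval of the log2 fold change was -0.52 to 0.12 for Nlrc4, -0.62 to 0.17 for Casp1, -0.47 to 0.14 for Pycard and -0.42 to 0.87 for Gsdmd. At 7 weeks it was -0.43 to 0.21 for Nlrc4, -0.33 to 0.45 for Casp1, -0.47 to 0.14 for Pycard and -0.65 to 0.64 for Gsdmd. The widest was that of Nlrp3 at 7 weeks, from -1.77 to 0.53.

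Most of the genes differed between the ages, in both directions. In control pups, 7 of the 10 differed between 7 and 2 weeks, 4 higher (Nlrp1b, Naip5, Nlrc4 and Gsdmd) and 3 lower (Naip1, Naip6 and Casp1). Over all genes tested 61.5% were called, 27.1% higher and 34.4% lower, so a count of 7 of 10 is near the background. In periodontitis pups 9 of the 10 differed, 6 higher (Nlrp1b, Naip5, Nlrc4, Gsdmd, Nlrp6 and Pycard) and 3 lower (Nlrp3, Naip1 and Naip6), against 66.1% of all genes, 30.4% higher and 35.7% lower. The median log2 fold change, 7 against 2 weeks, was 0.44 in control and 0.46 in periodontitis pups, against -0.13 and -0.11 over all genes. These medians depend on the scaling. Scaled to library totals in place of TMM, the median over all genes was -0.79 in control and -0.88 in periodontitis pups. The median of the 10 genes was then -0.26 and -0.3, of opposite sign to that with TMM. The 10 genes split into 1 higher and 4 lower in control pups and 2 higher and 4 lower in periodontitis pups.

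**Figure D2:**
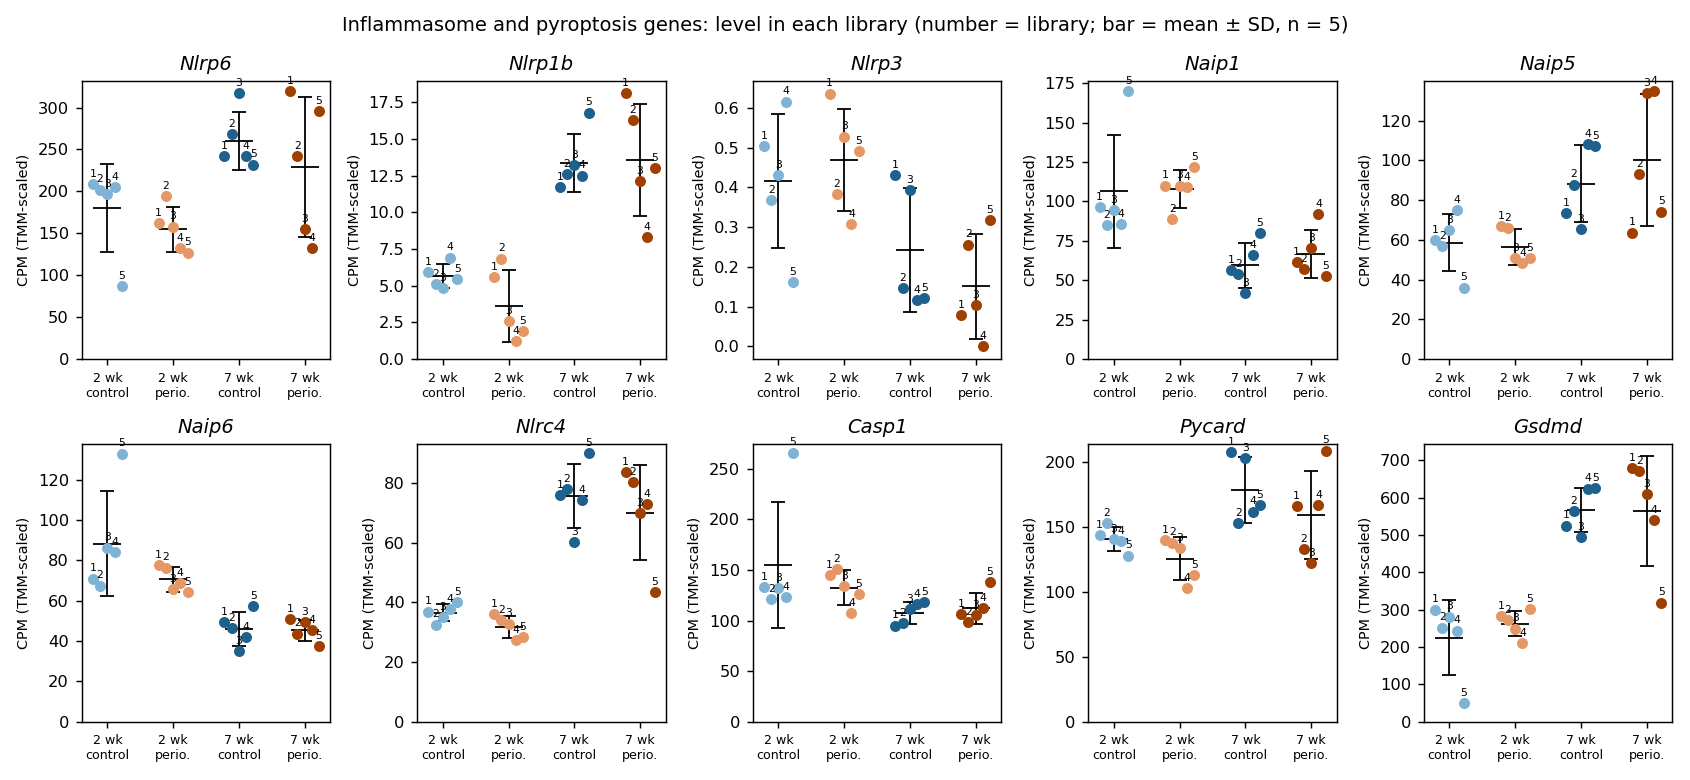
Level of each gene in CPM in each library, by group; points are libraries marked with their number, and bars are the mean ± SD of 5 libraries. With TMM scaling, Nlrc4, Nlrp1b and Gsdmd are higher at 7 weeks in every library and Naip6 is lower. Control library 5 at 2 weeks lies far from its group for Casp1, Gsdmd, Naip1, Naip6 and Nlrp6.

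The NAIP proteins are receptors that bind a bacterial ligand and then recruit Nlrc4. Naip5 and Naip6 recognise flagellin and Naip1 the needle protein of type III secretion systems. The 3 genes lie in 1 cluster on chromosome 13 of GRCm38, all on the minus strand, at chr13:100211739-100246323 for Naip5, chr13:100281121-100317674 for Naip6 and chr13:100407764-100452869 for Naip1. Their promoters are shown because with TMM scaling Naip5 was higher and Naip1 and Naip6 were lower with age (with library totals Naip5 was at -0.13 in control and 0.02 in periodontitis pups). The 4 sequences, that of Naip2 included, are RefSeq windows of GRCm38.p6 from 250 bases before to 50 after the start, read 5′ to 3′ on the minus strand. Capitals mark runs of at least 10 bases that occur in another of the 4 windows.
Naip1, chr13:100452815-100453114: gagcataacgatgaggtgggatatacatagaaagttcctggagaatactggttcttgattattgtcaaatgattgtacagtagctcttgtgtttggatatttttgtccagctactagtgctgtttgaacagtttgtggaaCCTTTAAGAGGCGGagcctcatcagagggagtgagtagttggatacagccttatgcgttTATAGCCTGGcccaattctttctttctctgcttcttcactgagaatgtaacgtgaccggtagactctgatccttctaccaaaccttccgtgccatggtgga
Naip5, chr13:100247287-100247586: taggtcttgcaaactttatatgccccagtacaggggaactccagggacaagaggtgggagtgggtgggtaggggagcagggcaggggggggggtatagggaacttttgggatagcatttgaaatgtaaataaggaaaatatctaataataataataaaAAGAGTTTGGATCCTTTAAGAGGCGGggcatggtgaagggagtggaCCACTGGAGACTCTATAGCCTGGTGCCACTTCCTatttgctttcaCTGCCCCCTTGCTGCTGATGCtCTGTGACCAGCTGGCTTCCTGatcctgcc
Naip6, chr13:100316567-100316866: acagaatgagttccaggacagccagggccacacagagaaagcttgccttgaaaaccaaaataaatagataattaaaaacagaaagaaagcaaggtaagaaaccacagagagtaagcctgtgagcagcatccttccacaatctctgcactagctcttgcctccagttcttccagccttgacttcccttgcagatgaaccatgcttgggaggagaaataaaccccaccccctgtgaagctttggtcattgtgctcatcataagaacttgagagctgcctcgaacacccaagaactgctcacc
Naip2, chr13:100202073-100202372: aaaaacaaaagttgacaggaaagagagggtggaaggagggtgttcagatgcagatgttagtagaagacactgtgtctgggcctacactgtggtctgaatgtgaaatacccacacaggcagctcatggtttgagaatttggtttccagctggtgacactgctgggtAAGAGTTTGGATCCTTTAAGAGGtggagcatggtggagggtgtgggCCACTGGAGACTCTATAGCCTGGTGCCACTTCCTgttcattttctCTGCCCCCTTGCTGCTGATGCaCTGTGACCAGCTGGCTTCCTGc
The windows of Naip5 and Naip2 shared 99 of 300 bases in such runs, the longest of 34 bases, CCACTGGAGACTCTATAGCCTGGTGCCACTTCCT. The window of Naip1 shared 24 bases with that of Naip5, with CCTTTAAGAGGCGG as the longest run, and the window of Naip6 shared 0 with the other 3. The RefSeq start of Naip6 lies inside the GENCODE gene and that of Naip5 outside it, so these windows need not hold the starts used in this tissue. Of 4 motifs searched on both strands, TATAAA occurred in the windows of Naip1 and Naip5 on the reverse strand. It occurs in 13.6% of the 32851 RefSeq promoters of this length. TTTATGG, a motif bound by CDX factors, occurs in 2.75% of promoters, the ETS-IRF composite element in 2.72% and the core of the interferon-stimulated response element, which can overlap it, in 3.44%. Each of these occurred in 0 windows of the 9 genes of the set that have an entry.

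Naip6 was lower at 7 weeks in every library. In control pups its 5 libraries had 71, 67.5, 86.4, 84 and 133 CPM at 2 weeks and 49.3, 46.3, 35.1, 42 and 57.5 CPM at 7 weeks. In periodontitis pups they had 77.7, 76.5, 65.6, 68.7 and 64.4 CPM and then 51, 43.7, 49.4, 45.4 and 37.6 CPM. The groups of the 2 ages did not overlap. With age the log2 fold change was -0.94 ± 0.17 in control pups (SE, n = 5 per group, edgeR adjusted p = 0.000109) and -0.64 ± 0.17 in periodontitis pups (adjusted p = 0.00271).

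Naip1 was lower as well. Its libraries had 96.6, 85.1, 94.5, 85.4 and 170 CPM in control pups at 2 weeks and 56.6, 53.8, 41.8, 65.7 and 80.1 CPM at 7 weeks. In periodontitis pups they had 110, 88.8, 110, 109 and 122 CPM and then 61.3, 57.3, 70.2, 91.9 and 52.8 CPM. The ages did not overlap in control pups, and in periodontitis pups library 4 at 7 weeks reached above the lowest library of 2 weeks. Between the ages the log2 fold change was -0.83 ± 0.21 in control (edgeR adjusted p = 0.00172) and -0.7 ± 0.21 in periodontitis pups (adjusted p = 0.00572).

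Naip5 was higher at 7 weeks, but its direction depended on the scaling. Its libraries had 59.7, 57, 65, 75 and 36 CPM in control pups at 2 weeks and 73.5, 87.8, 65.5, 108 and 107 CPM at 7 weeks. In periodontitis pups they had 67, 65.9, 50.9, 48.3 and 50.9 CPM and then 63.6, 93.1, 134, 135 and 74.2 CPM. The ages overlapped in both kinds of pup. The fit gave a log2 fold change of 0.59 ± 0.22 in control (edgeR adjusted p = 0.0262) and 0.82 ± 0.22 in periodontitis pups (adjusted p = 0.0033), and with library totals it was -0.13 and 0.02. In control pups the call was also lost without library 5 of 2 weeks (0.46, adjusted p = 0.0548), library 4 of 7 weeks (0.51, 0.0711) or library 5 of 7 weeks (0.52, 0.0698), and with no filter on low counts (0.56, 0.0556).

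Ratios of counts within a library do not depend on scaling. They were chosen for display after the values were seen and are a description only. The ratio of Naip6 to Naip5 counts was 1.12 to 3.7 in control and 1.16 to 1.42 in periodontitis pups at 2 weeks, and 0.388 to 0.67 and 0.337 to 0.803 at 7 weeks. It was above 1 in all 10 libraries of 2 weeks and below 1 in all 10 of 7 weeks. The ratio of Naip1 to Naip5 counts did the same, at 1.14 to 4.71 and 1.35 to 2.4 at 2 weeks and 0.607 to 0.77 and 0.526 to 0.965 at 7 weeks. In both ratios the highest value was that of control library 5 at 2 weeks. The counts of these genes are uncertain where they share sequence, since the authors' counting had to split such reads: of the 50-base windows of the annotated transcripts, 31.5% of Naip1, 36.8% of Naip5 and 21.5% of Naip6 occur in another gene as well. For windows of 100 bases the shares were 13%, 16.2% and 6.26%. Naip2, the receptor of the inner rod of type III secretion systems, had a log2 fold change of 0.46 ± 0.12 in control (edgeR adjusted p = 0.00236) and 0.4 ± 0.12 in periodontitis pups (adjusted p = 0.00588), and of -0.22 and -0.38 with library totals. With no filter the call in periodontitis pups was lost (adjusted p = 0.0777).

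**Figure D3:**
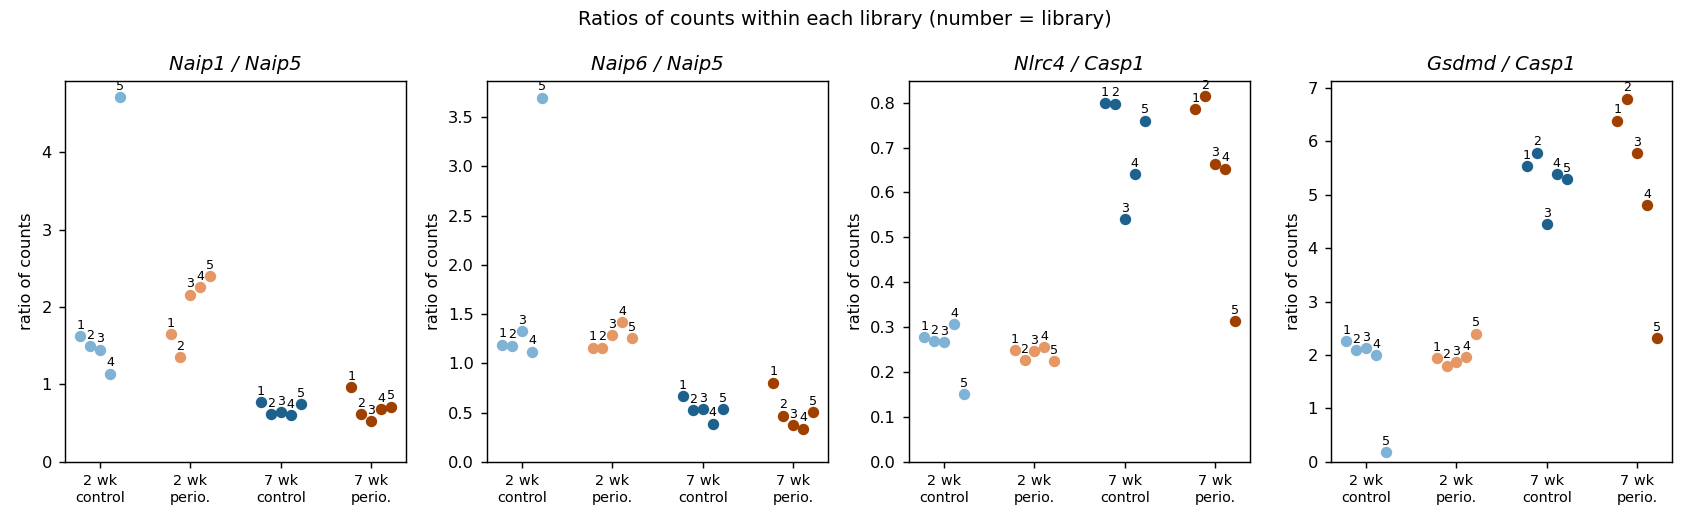
Ratios of counts of 2 genes within each library, by group; each point is a library marked with its number. The ratios of Naip1 and Naip6 to Naip5 lie above 1 in all 2-week libraries and below 1 in all 7-week libraries, and those of Nlrc4 and Gsdmd to Casp1 are higher at 7 weeks, with periodontitis library 5 the lowest of that age and, for Gsdmd, within the range of 2 weeks.

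Nlrc4, which all NAIP receptors recruit, was higher at 7 weeks in every library with TMM scaling. In control pups it had 36.9, 32.5, 35.1, 37.6 and 40.1 CPM at 2 weeks and 75.8, 77.9, 60.1, 74.3 and 90 CPM at 7 weeks. In periodontitis pups it had 36, 34.1, 32.9, 27.4 and 28.3 CPM and then 83.5, 80.3, 69.9, 73 and 43.3 CPM. Again the ages did not overlap, and the lowest library of 7 weeks was periodontitis library 5. With age the log2 fold change was 1.05 ± 0.16 in control (edgeR adjusted p = 1.49e-05) and 1.14 ± 0.16 in periodontitis pups (adjusted p = 4.03e-06). With library totals it was 0.39 (adjusted p = 0.013) and 0.33 (adjusted p = 0.03), so Nlrc4 was called under both scalings. The ages then overlapped: periodontitis library 5 of 7 weeks, with 1497 of 35.1 M counts, lay below control library 1 of 2 weeks, with 1903 of 39.6 M.

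Nlrp1b, a sensor that is activated when proteases cut it, was higher at 7 weeks too. Control libraries had 5.93, 5.08, 4.84, 6.91 and 5.47 CPM at 2 weeks and 11.7, 12.6, 13.2, 12.5 and 16.8 CPM at 7 weeks. Periodontitis libraries had 5.59, 6.84, 2.56, 1.21 and 1.88 CPM and then 18.1, 16.3, 12.1, 8.29 and 13 CPM. With TMM scaling no library of 2 weeks reached those of 7 weeks. At 2 weeks periodontitis libraries 3, 4 and 5 were below all control libraries, while libraries 1 and 2 lay within their range. With age the log2 fold change was 1.24 ± 0.34 in control (edgeR adjusted p = 0.00399) and 1.91 ± 0.35 in periodontitis pups (adjusted p = 9.37e-05). With library totals it was 0.56 in control pups and no longer called (adjusted p = 0.156), and 1.15 in periodontitis pups. Between dams at 2 weeks it was -0.65 ± 0.34 and not called (adjusted p = 0.397, 95% interval -1.36 to 0.07). Marker genes differed between the libraries of this group as well. In libraries 1 to 5 of 2-week periodontitis pups the summed level of 5 suckling enterocyte markers was 1960, 1370, 3730, 3540 and 4480 CPM. That of 5 weaned enterocyte markers was 1800, 2170, 711, 530 and 609 CPM, and that of 5 distal intestine markers 859, 749, 420, 438 and 374 CPM. In 2-week control pups the 3 sums ran from 446 to 1420, from 2360 to 4970 and from 549 to 860 CPM. The weaned enterocyte sums of the 2 kinds of pup thus did not overlap. Between dams the median log2 fold changes of the 3 lists were 1.09, -1.28 and -0.49. In each list 0 markers were called, against 0.0286% of all genes tested. Each of these markers had counts in both groups of 2-week pups, and their part in the levels of Nlrp1b was not tested.

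Nlrp6 and Nlrp3 were less firmly placed. Nlrp6 had 209, 202, 197, 205 and 87.3 CPM in control pups at 2 weeks and 242, 268, 317, 242 and 232 CPM at 7 weeks. In periodontitis pups it had 162, 194, 158, 132 and 127 CPM and then 320, 242, 155, 132 and 296 CPM. With TMM scaling the ages did not overlap in control pups. They overlapped in periodontitis pups, where libraries 3 and 4 at 7 weeks were at the level of 2 weeks. Between the ages the log2 fold change was 0.53 ± 0.24 in control (edgeR adjusted p = 0.065) and 0.57 ± 0.24 in periodontitis pups (adjusted p = 0.0464), and it was -0.19 in both with library totals. In control pups DESeq2 called Nlrp6 (0.55, adjusted p = 0.0421). In periodontitis pups the call was lost in 7 of the 10 fits that left out 1 library (0.42 to 0.58, adjusted p up to 0.152), namely 2-week libraries 1, 3, 4 and 5 and 7-week libraries 1, 2 and 5. It was also lost with no filter (adjusted p = 0.119) and with the compared groups alone (adjusted p = 0.0509).

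Nlrp3 had 0 to 34 counts per library and 91, 118, 34 and 21 counts in the groups of 2-week control, 2-week periodontitis, 7-week control and 7-week periodontitis pups. Its levels were 0.161 to 0.616 and 0.307 to 0.636 CPM at 2 weeks and 0.117 to 0.431 and 0 to 0.318 CPM at 7 weeks. Periodontitis library 4 at 7 weeks had 0 counts, which allows up to 0.187 CPM (3 counts, counting error only). The log2 fold change with age was -0.8 ± 0.49 in control (edgeR adjusted p = 0.159) and -1.52 ± 0.51 in periodontitis pups (adjusted p = 0.013). Scaled to library totals it was -1.47 in control pups, where Nlrp3 was then called (adjusted p = 0.0216), and -2.23 in periodontitis pups (adjusted p = 0.00166). Over all genes tested 61.5% were called with age in control and 66.1% in periodontitis pups. Of 8 macrophage and monocyte markers, 2 were higher and 3 lower in control pups and 0 higher and 6 lower in periodontitis pups, with 0 at 0. Their summed level ran from 79 to 164 and from 169 to 202 CPM at 2 weeks and from 66.8 to 170 and from 43.5 to 121 CPM at 7 weeks, in control and periodontitis pups. The part of these cells in the level of Nlrp3 was not tested.

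Pycard, the adaptor that links NLRP sensors to caspase-1, lay close to the threshold. Its libraries had 144, 153, 141, 139 and 128 CPM in control pups at 2 weeks and 208, 153, 203, 162 and 167 CPM at 7 weeks. In periodontitis pups they had 140, 138, 134, 103 and 113 CPM and then 166, 133, 122, 167 and 209 CPM. The ages touched in control and overlapped in periodontitis pups. The log2 fold change was 0.34 ± 0.15 in both, past the threshold in periodontitis pups (edgeR adjusted p = 0.0455) and not in control pups (adjusted p = 0.0506). With library totals it was -0.41 in periodontitis and -0.33 in control pups. The difference between the kinds of pup was 0 ± 0.21 (adjusted p = 0.999). In periodontitis pups the call was lost in 6 of the 10 fits without 1 library (0.21 to 0.36, adjusted p up to 0.189), namely 2-week libraries 3, 4 and 5 and 7-week libraries 1, 4 and 5, with no filter (adjusted p = 0.212) and with the compared groups alone (adjusted p = 0.0643). In control pups Pycard was called by DESeq2 (0.35, adjusted p = 0.0216), with its size factors (0.35, 0.0399), with no robust estimation (0.34, 0.0493), without both libraries that stand apart (0.28, 0.0428) and without 7-week control library 2 (0.39, 0.0392). Exons of Pycard overlap the antisense gene Gm45205, and reads of the 2 cannot be told apart where counting did not use strand, which is not given in the sources used here.

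Casp1, the protease, was lower at 7 weeks in control pups, a call that turned on control library 5 of 2 weeks. Control libraries had 133, 121, 132, 123 and 266 CPM at 2 weeks and 95, 97.5, 111, 116 and 118 CPM at 7 weeks. Periodontitis libraries had 145, 151, 134, 107 and 126 CPM and then 106, 98.6, 105, 112 and 138 CPM. The ages did not overlap in control pups and overlapped in periodontitis pups. The log2 fold change was -0.52 ± 0.19 in control pups (edgeR adjusted p = 0.0212) and -0.24 ± 0.19 in periodontitis pups (adjusted p = 0.263). Without control library 5 of 2 weeks it was -0.24 in control pups and not called (adjusted p = 0.0623), and without 7-week control library 1 it was -0.48 (adjusted p = 0.0504). With the compared groups alone it was -0.56 (adjusted p = 0.0517). With library totals it was -1.11 and -1, and Casp1 was lower in both kinds of pup.

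Gsdmd, the substrate that forms the pore, was higher at 7 weeks in every library with TMM scaling. Control libraries had 300, 252, 281, 244 and 49 CPM at 2 weeks and 525, 564, 494, 624 and 626 CPM at 7 weeks. Periodontitis libraries had 282, 271, 249, 211 and 301 CPM and then 679, 670, 609, 539 and 319 CPM. With TMM scaling there was no overlap between the ages. Library 5 of control pups at 2 weeks and library 5 of periodontitis pups at 7 weeks were each the lowest of their group. With age the log2 fold change was 1.33 ± 0.31 in control (edgeR adjusted p = 0.00121) and 1.1 ± 0.31 in periodontitis pups (adjusted p = 0.00448). With library totals it was 0.57 (adjusted p = 0.153) and 0.28 (adjusted p = 0.477) and not called. The ages then overlapped: periodontitis library 5 of 7 weeks, with 11037 of 35.1 M counts, lay below control library 1 of 2 weeks, with 15479 of 39.6 M.

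The ratio of Gsdmd to Casp1 counts, which does not depend on scaling, had group medians of 2.09 and 1.94 at 2 weeks and 5.39 and 5.78 at 7 weeks, in control and periodontitis pups. It was 0.184 in control library 5 at 2 weeks and 2.31 in periodontitis library 5 at 7 weeks, which fell within the range of the 2-week libraries. The ratio of Nlrc4 to Casp1 counts had medians of 0.269 and 0.246 at 2 weeks and 0.76 and 0.664 at 7 weeks. Its highest value at 2 weeks was 0.306 and its lowest at 7 weeks 0.313.

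Other cell type markers differed with age, as did most genes: 61.5% of all genes tested were called in control and 66.1% in periodontitis pups. The directions below are those with TMM scaling. Scaled to library totals, 1652 of all genes were higher and 9925 lower in control pups, against 4740 and 5999 with TMM. In periodontitis pups they were 2009 and 10444, against 5312 and 6230. The markers were not tested with library totals. Of the 8 epithelial markers 5 were higher and 2 lower in control pups, and 5 higher and 1 lower in periodontitis pups. Of 6 smooth muscle and stroma markers 0 were higher and 5 lower in both. Their summed level was 1470 to 2790 and 1030 to 2990 CPM at 2 weeks and 393 to 849 and 338 to 1010 CPM at 7 weeks, with 0 at 0. All 5 proximal intestine markers were higher and all 5 distal ones lower in both kinds of pup. The distal sum was 374 to 860 CPM at 2 weeks and 32.2 to 75.5 CPM at 7 weeks. Of its 5 genes 1 was at 0 in all libraries of 7-week control pups and 2 in all libraries of 7-week periodontitis pups. All 5 weaned enterocyte markers were higher in both. Of 5 suckling enterocyte markers 1 was higher and 4 lower in control pups, and 0 and 3 in periodontitis pups. Of 4 T cell markers 3 were higher and 0 lower in control pups, and 3 and 1 in periodontitis pups. Of 4 leukocyte markers 1 was higher and 0 lower, and then 1 and 1. Of 2 neutrophil markers tested 0 were higher in either, with 1 and 2 lower. Of 3 B cell markers 0 were higher in either, with 0 and 1 lower. The part of tissue make-up and segment in the changes with age was not tested.

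**Figure D4:**
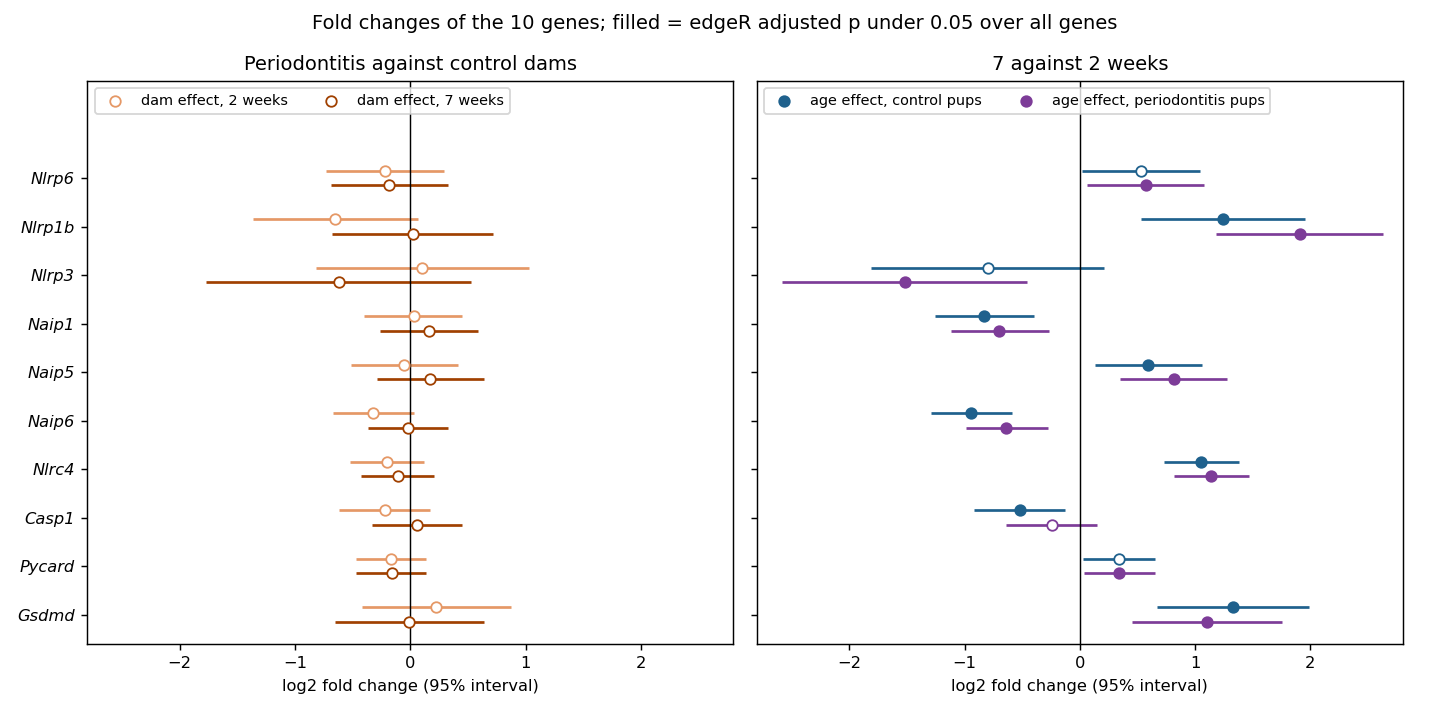
Log2 fold changes of the 10 genes with 95% intervals, periodontitis against control dams (left) and 7 against 2 weeks (right); filled points have an edgeR adjusted p under 0.05 over all genes. All intervals of the dam contrast include 0, and with age Nlrp1b, Naip5, Nlrc4 and Gsdmd lie above 0 and Naip1 and Naip6 below it in both kinds of pup, with Naip5 at -0.13 in control pups when scaled to library totals.

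The wider pathway was read from a list of 47 other genes, of which 45 were found and 42 were tested. Nlrp1a, Nlrp12 and Gsdmc did not pass the filter on low counts. Between dams 0 of the 42 were called at 2 weeks, at 7 weeks or for the difference between ages. The shares called over all genes were 0.0286%, 0.0115% and 0.0229%. At an unadjusted p under 0.05 the counts were 7, 1 and 5 of the 42, against 2511, 582 and 1537 of all 17464 genes tested. With age, 11 were higher and 10 lower in control pups (50% called, against 61.5% of all genes) and 14 higher and 11 lower in periodontitis pups (59.5%, against 66.1%). Their median log2 fold change was 0.03 and 0.05, and scaled to library totals the split was 9 higher and 21 lower and 7 higher and 24 lower.

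Among the cytokines that caspase-1 matures, Il18 rose with age and Il1b did not rise. Il18, which epithelial cells make, had 11.6, 10.2, 11.2, 14.7 and 39.3 CPM in control pups at 2 weeks and 77, 92.8, 86.8, 76.5 and 75.3 CPM at 7 weeks. In periodontitis pups it had 12.6, 11.7, 6.51, 5.92 and 6.13 CPM and then 118, 94.7, 74.6, 60 and 95.6 CPM. The ages did not overlap. The log2 fold change of Il18 was 2.25 ± 0.33 in control (edgeR adjusted p = 1.59e-05) and 3.37 ± 0.35 in periodontitis pups (adjusted p = 1.73e-07). Between dams at 2 weeks it was -1 ± 0.32 and not called (adjusted p = 0.157), and without control library 5 of 2 weeks and periodontitis library 5 of 7 weeks it was -0.48. Its decoy Il18bp was higher in periodontitis pups (0.92 ± 0.31, adjusted p = 0.0135; 0.59 without 7-week library 1, adjusted p = 0.0784) and not called in control pups (0.55, adjusted p = 0.133), where it was called without library 5 of 2 weeks (0.85, adjusted p = 0.0114). With library totals it was -0.03 in control and 0.11 in periodontitis pups. The receptor gene Il18r1 had 1.8 to 4.02 CPM in control pups at 2 weeks and 0.545 to 1.12 CPM at 7 weeks, and 4.3 to 9.91 CPM and then 0.256 to 1.07 CPM in periodontitis pups. It was lower with age in both, at -2.04 ± 0.33 (adjusted p = 4.09e-05) and -2.99 ± 0.34 (adjusted p = 4.97e-07). Il1b had group means of 1.63 and 1.48 CPM at 2 weeks and 1.19 and 0.797 CPM at 7 weeks, in control and periodontitis pups. It was lower in periodontitis pups (-0.89 ± 0.36, edgeR adjusted p = 0.0366), a call lost in 5 of 10 fits that left out 1 library (libraries 1, 2 and 5 of 2 weeks and 2 and 3 of 7 weeks; adjusted p up to 0.0973). In control pups it was -0.41 and not called.

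Panx1, which forms a channel in the plasma membrane, was higher at 7 weeks in every library. It had 13.1 to 16.1 CPM in control pups at 2 weeks and 42.1 to 48.8 CPM at 7 weeks, and 9.36 to 14.6 CPM and then 40.8 to 58 CPM in periodontitis pups. Its log2 fold change was 1.67 ± 0.13 in control (edgeR adjusted p = 1.71e-08) and 2.12 ± 0.14 in periodontitis pups (adjusted p = 7.89e-10). It was also called with library totals, at 1 in control and 1.32 in periodontitis pups. Irf1, an interferon-induced transcription factor, changed by 1.65 ± 0.23 in control pups (adjusted p = 9.03e-06), and by 1.3 ± 0.23 in periodontitis pups (adjusted p = 7.03e-05), where with library totals it was 0.48 and not called (adjusted p = 0.115). Irf8, a myeloid and B cell transcription factor, was not called in control pups (0.44, or -0.27 with library totals) or in periodontitis pups (0.03, or -0.77).

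Other sensors and gasdermins changed in both directions. The gasdermin gene Gsdma changed by 1.67 ± 0.3 in control pups (edgeR adjusted p = 0.000108) and by 1.34 ± 0.3 in periodontitis pups (adjusted p = 0.00059), and Nlrp9b, an NLRP family sensor, by 1.31 ± 0.35 (adjusted p = 0.00291) and 1.25 ± 0.34 (adjusted p = 0.00354). In periodontitis pups both calls were lost with library totals (0.56 and 0.4, adjusted p = 0.0927 and 0.221). Aim2, the sensor of cytosolic DNA, had 3.34 to 9.5 CPM in control pups at 2 weeks and 0.981 to 1.87 CPM at 7 weeks. Its log2 fold change was -1.82 ± 0.32 (edgeR adjusted p = 8.95e-05) and -1.84 ± 0.32 in periodontitis pups (adjusted p = 6.21e-05). Gsdme, another gasdermin, changed by -1.76 ± 0.23 (adjusted p = 4.16e-06) and -1.21 ± 0.23 (adjusted p = 0.000114). Of the gasdermin C cluster, Gsdmc3 changed by -3.46 ± 0.75 (adjusted p = 0.00057), Gsdmc2 by -2.58 ± 0.65 (adjusted p = 0.00198) and Gsdmc4 by -1.82 ± 0.64 (adjusted p = 0.0185) in control pups. In periodontitis pups Gsdmc3 changed by -2.44 ± 0.71 (adjusted p = 0.00522), or -4.33 without 7-week library 4, which had 2.74 CPM against 0 to 0.358 CPM in the other 4. There Gsdmc2 changed by -1.44 ± 0.63 (adjusted p = 0.0488), and at 7 weeks library 4 had 7.79 CPM against 0.236 to 1.28 CPM in the other 4. The Gsdmc2 call was lost without any 1 of the 7-week libraries 1, 2, 3 or 5 or the 2-week libraries 1, 2 or 3 (adjusted p up to 0.113), and under 5 of the other settings (adjusted p up to 0.115). Gsdmc4 was not called in periodontitis pups, and without 7-week library 4 it was (-2.09, adjusted p = 0.0014). Ninj1, which ruptures the membrane after pores form, fell in periodontitis pups by 1.66 on the log2 scale (SE 0.32, adjusted p = 0.000164). In control pups it was -0.62 (adjusted p = 0.0931), and without library 5 of 2 weeks -0.87 (adjusted p = 0.000376). Of the caspases that act beside caspase-1, Casp8 was higher in periodontitis pups (0.73 ± 0.23, adjusted p = 0.0085) and was 0.45 in control pups (adjusted p = 0.0915), or 0.76 without library 5 of 2 weeks (adjusted p = 0.00054). With library totals Casp8 was -0.07 in periodontitis and -0.12 in control pups. Casp4, the sensor of cytosolic lipopolysaccharide, was not called in control (-0.48) or periodontitis pups (-0.34). With library totals Casp4 was lower in both, at -1.04 (adjusted p = 0.00528) and -1.17 (adjusted p = 0.00198).

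**Figure D5:**
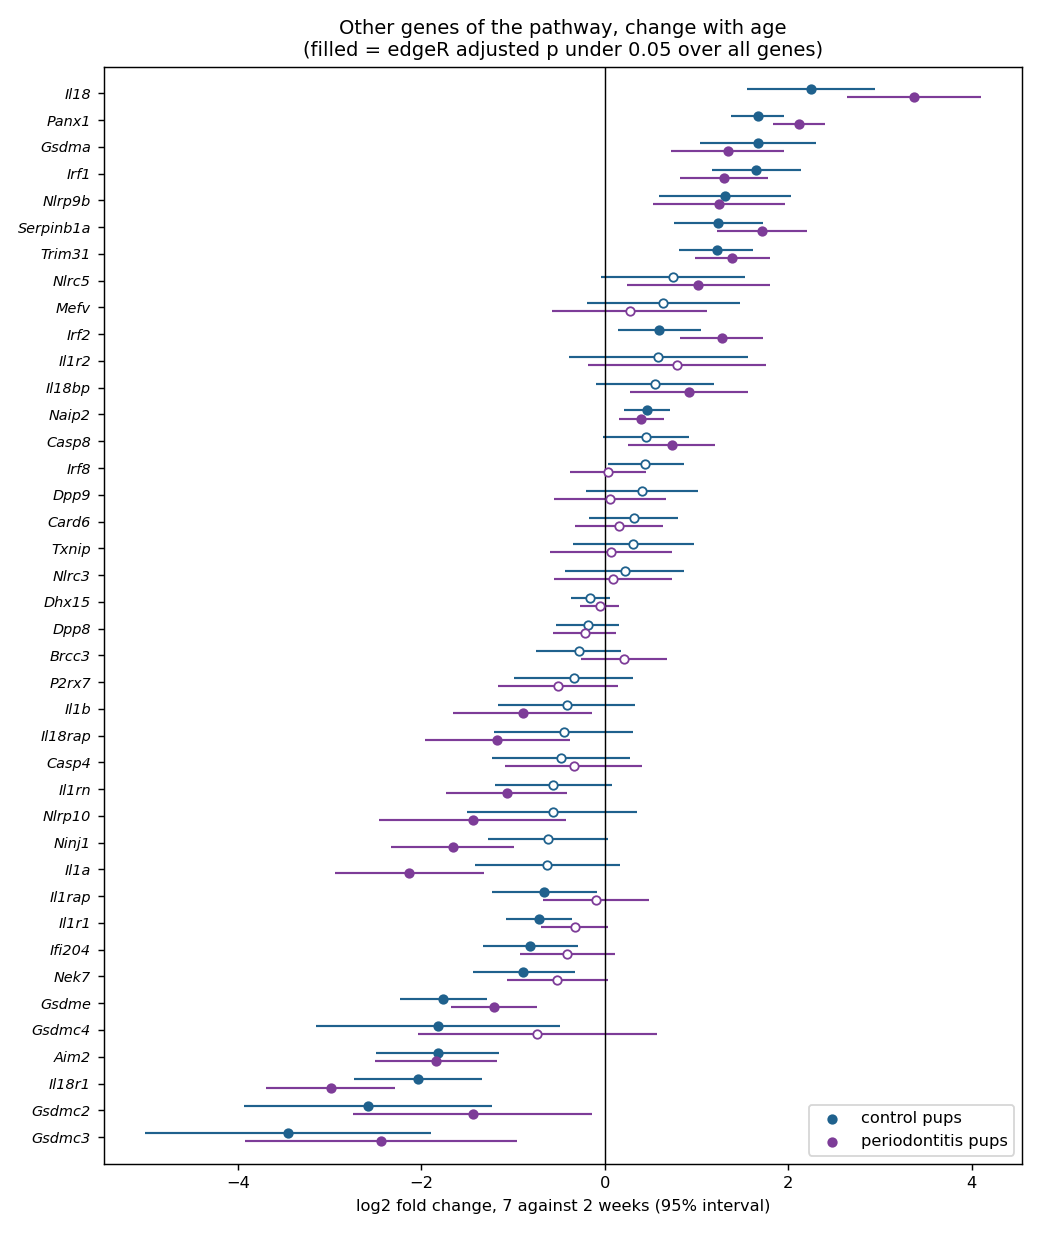
Log2 fold changes, 7 against 2 weeks, of 40 of the 42 other pathway genes tested, with 95% intervals, in control and periodontitis pups; filled points have an edgeR adjusted p under 0.05 over all genes. Il18 and Panx1 lie at the top and Gsdmc2, Il18r1 and Aim2 near the bottom in control pups; scaling to library totals moves the median over all genes down to -0.79 in control and -0.88 in periodontitis pups.

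For 4 of the genes the most similar genes were sought among 11705 candidates, as the smallest root mean square difference of centred log2 CPM over the 20 libraries. Map2k1 was nearest to Nlrc4, at 0.089 against a median of 0.702 over the candidates. Ift52 was nearest to Casp1, at 0.12 against 0.667, Tnks1bp1 to Gsdmd, at 0.136 against 0.913, and Arpin to Nlrp6, at 0.179 against 0.662. Each of these distances is the smallest of 11705 and so lies below the median by construction. The libraries are shared by all genes, and these distances are a description.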

How the data were processed

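Small intestine of mouse pups was measured by bulk RNA-seq of polyA RNA in 20 libraries, 5 in each of 4 groups taken from the labels. The deposited values are expected counts per gene. Per the submitters' processing notes, the authors used cutadapt 4.8, FastQC 0.11.8, STAR 2.7.8a and RSEM 1.3.3. Both GRCh38 and GRCm38 are named as builds. Annotation release and strandedness are not given in the sources used here. The table had 55491 rows, of which 4 name no gene and held 0 counts, and rounding to whole numbers changed 0 values. Coordinates and exon lengths are from GENCODE M21 on GRCm38, which matched 55227 gene IDs and not 260.

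Counts were tested with edgeR 4.0.16 in R 4.3.3. Genes kept by filterByExpr (17464, which lost at most 0.0838% of a library's counts) were scaled by TMM. All 20 libraries entered 1 robust quasi-likelihood fit with a mean for each group (common dispersion 0.0989, 16 residual degrees of freedom). Benjamini-Hochberg adjustment ran over every gene tested, and an adjusted p under 0.05 is a call. Standard errors are the size of the log2 fold change over the root of F. The members and lists were chosen with earlier results of these data known. The 10 genes are always named. Of the 47 other pathway genes 12 are always given, and of the rest up to 4 per contrast with the smallest p among those called. Of those named by this rule, 2 are not reported here, nor drawn. Irf1 in periodontitis pups, Il18r1 in control pups, Gsdma, Nlrp9b, Gsdmc3 and Serpinb1a were named after their values were seen. The most similar genes are the 3 nearest in log2 CPM centred on each gene's own mean, not in level, among genes with a mean log2 CPM of at least 1. No pairing of the libraries by replicate number was seen. On simulated data for the 2-week contrast, 60% of 2-fold and 95% of 4-fold changes were recovered among 17074 genes, with 14 false calls. Each fold was given to 100 genes with a mean above 1 CPM, and all 4 groups otherwise shared the same mean for each gene. The simulated data thus held no difference with age, unlike the real data. Recovery is not given by level or for the 10 genes. These rates may be too high for a gene as low as Nlrp3, or for a group holding control library 5 of 2 weeks. Each result was also computed with DESeq2 1.42.0, with its size factors, without a filter, with CPM above 1 required in 5 libraries, on the compared groups alone, without robust estimation, with replicate numbers as a block, and without each library. Scaling to library totals, and removal of both libraries that stand apart, were added after the data were seen.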

Additional observations from a re-analysis of the deposited data

Results flagged for a closer look

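In groups of 5 libraries, a library was taken as far from the others where its gap to the nearest one exceeded 0.71 of the group's range. Of 40 groups examined 5 were marked, and chance marks about 1 in 20. All 5 were control library 5 at 2 weeks, the library with 29.41% mitochondrial counts. It was the highest for Casp1 (266 CPM against 121 to 133 CPM in the other 4), for Naip1 (170 CPM against 85.1 to 96.6 CPM) and for Naip6 (133 CPM against 67.5 to 86.4 CPM). It was the lowest for Gsdmd (49 CPM against 244 to 300 CPM) and for Nlrp6 (87.3 CPM against 197 to 209 CPM). Without it the log2 fold change with age in control pups was -0.24 for Casp1, -0.6 for Naip1, -0.75 for Naip6, 1.07 for Gsdmd and 0.36 for Nlrp6.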

How the results depend on the processing

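For single genes, 770 of 846 values under other settings and 1007 of 1080 values without 1 library kept their direction and their side of the threshold. The number of the 10 genes called stayed at 0 between dams in every setting, and for age it was 5 to 8 (control pups) and 7 to 9 (periodontitis pups) when 1 library was left out. Of the 10, DESeq2 called 9 in both, and in control pups 8 were called with its size factors or no robust estimation and 5 with library totals. The replicate block gave 0, 0, 0, 7 and 7 called genes of the 10. It ended the calls of Nlrp6 (adjusted p = 0.0559) and Pycard (0.0666) with age in periodontitis pups and brought in Irf8 in control pups (0.0456). Same-numbered libraries correlated at -0.4 to 0.29, so no pairing by number was seen. With 5 libraries in a group, this cannot exclude a litter or batch shared by number. Over all genes, the block called 0 genes between dams at 2 weeks, 0 at 7 weeks and 0 for the difference between ages (2015, 500 and 1139 at an unadjusted p under 0.05).

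The cause of the changes that follow was not tested. At 2 weeks, 5 genes of all were called between dams in edgeR, 599 in DESeq2, 0 with its size factors (2628 unadjusted), 0 with the compared groups alone (2159), 17 with no robust estimation, 361 without both libraries that stand apart and 0 to 387 without 1 library. At 7 weeks, 2 were called, 25 in DESeq2, 0 with the compared groups alone (383), 0 with library totals (575), 32 without both libraries and 0 to 15 without 1. For the difference between ages, 4 were called, 65 in DESeq2, 159 without both libraries and 1 to 26 without 1. Of the pathway list 1 gene, Serpinb1a, was called at 2 weeks without both libraries (-0.63). Over all genes, library totals gave 1652 higher and 9925 lower with age in control pups (4740 and 5999 with TMM), and 2009 and 10444 in periodontitis pups (5312 and 6230).

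Values that changed sign between dams at 2 weeks were those of Naip1 in DESeq2 and with its size factors (-0.01 each), of Naip5 and Casp1 with library totals (0.05 and 0.01), and without both libraries those of Nlrp3 (-0.04), Casp1 (0.06) and Gsdmd (-0.04). At 7 weeks they were those of Nlrp1b with the block (-0.05), Naip6 with library totals (0.01), and without both libraries Naip6 (0.05), Nlrc4 (0.03), Casp1 (-0.02), Gsdmd (0.14) and Serpinb1a (0.06). For the difference between ages they were those of Naip1 and Nlrc4 with library totals (-0.06 each), and without both libraries Naip1 (-0.02), Casp1 (-0.08) and Gsdmd (0.18). With age and library totals they were those of Nlrp6 (-0.19), Naip5 (-0.13), Pycard (-0.33), Naip2 (-0.22), Casp8 (-0.12), Il18bp (-0.03) and Irf8 (-0.27) in control pups. In periodontitis pups they were those of Nlrp6 (-0.19), Pycard (-0.41), Naip2 (-0.38), Casp8 (-0.07) and Irf8 (-0.77), and of Irf8 with no filter (-0.04). Without 1 library, values that crossed 0 at 2 weeks ran from -0.3 to 0.06 for Casp1, -0.04 to 0.35 for Gsdmd, -0.04 to 0.26 for Naip1, -0.18 to 0.06 for Naip5 and -0.04 to 0.28 for Nlrp3. At 7 weeks they ran from -0.02 to 0.1 for Casp1, -0.09 to 0.14 for Gsdmd, -0.1 to 0.07 for Naip6, -0.19 to 0.02 for Nlrc4, -0.11 to 0.15 for Nlrp1b, -0.01 to 0.23 for Il18 and -0.26 to 0.06 for Serpinb1a. For the difference between ages they ran from -0.36 to 0.03 for Gsdmd, -0.1 to 0.26 for Naip1 and -0.11 to 0.21 for Nlrp6, and with age in periodontitis pups from -0.12 to 0.12 for Irf8.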
